A study of Homo sapiens with 23 samples.

Results

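The 47 genes described here carry out DNA replication and the entry into S phase, and they were taken as a named list from the 60683 gene identifiers of the largest of 3 expression tables. All 47 were found in each table and passed the filter on low counts in each comparison. By role, 11 license replication origins, 8 activate the helicase, 13 work at the replication fork, 4 supply nucleotides, 7 regulate the step from G1 to S phase and 4 act in repair or chromatin assembly. They were followed in 23 RNA sequencing libraries of LNCaP and LAPC4 cells, in which ONECUT2 (OC2), a CUT-homeodomain transcription factor, was raised, lowered or inhibited. LNCaP and LAPC4 are both androgen-sensitive prostate adenocarcinoma lines. LNCaP cells overexpressed OC2 (OC2 OE, 2 libraries) beside Control (2), or carried a short hairpin against OC2 (shOC2, 2) beside a control hairpin (shCon, 2). LAPC4 cells, grown with the synthetic androgen R1881, overexpressed OC2 (3) beside the empty vector (Vec, 3). In a drug experiment, LNCaP cells received enzalutamide, an androgen receptor antagonist, at 10 µM together with an OC2 inhibitor at 10 µM (combination, 3), enzalutamide at 10 µM alone (3) or vehicle (3), each for 7 days. No library received the OC2 inhibitor alone. The labels do not say whether the libraries of a group came from separate cultures or clones, so the p-values measure the spread between these libraries, which may be technical.

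Replication is prepared in G1, when ORC, CDC6 and CDT1 load the MCM2 to MCM7 helicase onto origins. Geminin (GMNN) blocks this step once S phase has begun. The kinase CDC7 with its activator DBF4, together with MCM10, CDC45 and the GINS complex, then turns the loaded helicase into a moving fork, where the polymerases, the RFC clamp loader, the sliding clamp PCNA, the flap nuclease FEN1 and the ligase LIG1 copy the DNA. Most of these genes are transcribed in a burst at the end of G1 by E2F factors that are released from RB when cyclin D and cyclin E kinases are active, and E2F7 and E2F8 are repressors that end the burst. In prostate cancer cells, androgen receptor signalling drives this programme, and androgen deprivation lowers it.

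The libraries held between 20964025 and 30465978 counts. ONECUT2 stood at 334 and 306 CPM in LNCaP OC2 OE, against 24.6 and 30.6 CPM in Control. It stood at 969, 811 and 913 CPM in LAPC4 OC2 OE, against 13.2, 17.0 and 16.3 CPM in Vec. It stood at 12.1 CPM in each shOC2 library, against 20.4 and 21.2 CPM in shCon. In edgeR's quasi-likelihood test it was 11.4-fold and 57.7-fold higher with overexpression (adjusted p = 9.78e-09 and 2.85e-10) and 1.71-fold lower with the hairpin (adjusted p = 4.84e-05). All 10 luminal prostate markers were above 0 in each library, while 4 to 8 of 12 stromal, endothelial and blood markers were at 0 in each LNCaP library, and up to 2 in each LAPC4 library, with summed levels of 7.5 to 56.1 CPM. In the drug experiment, the enzalutamide library without a number and combination replicate 2 stood apart from the others of their groups in the summed level of the 47 genes, and the counts, medians and most affected genes are also given without them. The 3 enzalutamide columns also came from another counting step than the other drug columns, so that step and enzalutamide cannot be told apart, nor that step and the OC2 inhibitor where the combination is set against enzalutamide.

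Promoter sequences from RefSeq (GRCh38.p14, from 250 bases before to 50 after the annotated start) were found for 41 of the 47 genes. The 4 words TTTCCCGC, TTTGGCGC, TTTCGCGC and TTTGCCGC, forms of the E2F binding site, were searched on both strands. At least 1 of them was present in 20 of the 41 promoters (48.8%), against 908 of all 27305 promoters of the same length (3.3%). Counted from the annotated start, the word lay at position -35 in CDT1, -39 in TYMS, -31 in GINS2, -42 in E2F2 and -59 in PCNA. The word CCAAT was present in 21 of the 41 promoters (51.2%), against 35.7% of all promoters. The word pair TTTGAA and TTCGAA, forms of the CHR element of mitotic genes, was in 3 (7.3%), against 16.6% of all. The core words ATTGAT and ATTGAC, which ONECUT factors bind, were in 5 (12.2%, in ORC1, ORC6, GINS3, CDC25A and CHAF1A), against 11.9% of all. A word match is a description of the letters and not evidence of binding. The promoters of the 6 genes with the lowest adjusted p in the knockdown are printed because these genes carry the knockdown result, and the choice used those values. Capitals mark E2F words, which are present in all but RFC5.
MCM3, chr6:52284693-52284992, minus strand: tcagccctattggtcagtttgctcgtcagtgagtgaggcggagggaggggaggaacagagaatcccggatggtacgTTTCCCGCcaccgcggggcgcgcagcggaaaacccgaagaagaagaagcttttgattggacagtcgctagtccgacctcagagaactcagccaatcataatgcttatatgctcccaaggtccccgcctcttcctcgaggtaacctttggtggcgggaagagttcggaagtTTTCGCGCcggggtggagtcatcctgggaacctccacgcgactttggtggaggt
CDT1, chr16:88803539-88803838, plus strand: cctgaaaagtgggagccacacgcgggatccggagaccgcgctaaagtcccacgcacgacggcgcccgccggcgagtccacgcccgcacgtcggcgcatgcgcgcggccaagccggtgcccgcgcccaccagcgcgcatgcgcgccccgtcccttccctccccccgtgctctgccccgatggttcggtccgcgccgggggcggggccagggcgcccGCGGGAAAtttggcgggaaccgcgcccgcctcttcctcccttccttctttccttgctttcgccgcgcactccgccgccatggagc
MCM2, chr3:127598161-127598460, plus strand: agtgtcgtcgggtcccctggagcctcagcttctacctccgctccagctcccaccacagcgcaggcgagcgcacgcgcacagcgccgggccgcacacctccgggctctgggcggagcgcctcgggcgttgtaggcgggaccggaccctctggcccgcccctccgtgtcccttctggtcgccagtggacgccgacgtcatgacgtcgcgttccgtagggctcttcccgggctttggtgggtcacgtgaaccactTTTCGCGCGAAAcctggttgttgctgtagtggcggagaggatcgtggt
RFC5, chr12:118016453-118016752, plus strand: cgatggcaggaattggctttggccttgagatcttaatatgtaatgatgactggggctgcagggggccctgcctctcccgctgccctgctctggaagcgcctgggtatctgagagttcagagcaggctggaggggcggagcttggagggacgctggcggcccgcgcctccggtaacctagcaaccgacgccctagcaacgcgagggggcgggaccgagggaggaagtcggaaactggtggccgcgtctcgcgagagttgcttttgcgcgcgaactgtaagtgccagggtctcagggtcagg
GINS2, chr16:85688905-85689204, minus strand: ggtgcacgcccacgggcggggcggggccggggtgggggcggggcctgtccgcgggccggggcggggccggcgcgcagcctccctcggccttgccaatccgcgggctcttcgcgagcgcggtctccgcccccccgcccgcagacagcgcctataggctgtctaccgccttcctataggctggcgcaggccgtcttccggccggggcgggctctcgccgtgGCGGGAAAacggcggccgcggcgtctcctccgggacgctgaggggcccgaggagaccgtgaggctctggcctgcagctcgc
TYMS, chr18:657403-657702, plus strand: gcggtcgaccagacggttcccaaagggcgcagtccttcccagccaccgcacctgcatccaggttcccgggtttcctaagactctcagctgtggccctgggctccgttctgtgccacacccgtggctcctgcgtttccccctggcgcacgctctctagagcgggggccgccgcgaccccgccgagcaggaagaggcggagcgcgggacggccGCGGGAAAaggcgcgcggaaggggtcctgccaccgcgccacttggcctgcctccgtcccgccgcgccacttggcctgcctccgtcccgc
The MCM2 capitals are 2 overlapping words, 1 on each strand, just after the start.

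Levels per kilobase of exon, on the CPM scale, ran over more than an order of magnitude among the 47 genes. In Control LNCaP cells, PCNA was highest at 132.9 CPM per kb, followed by thymidine kinase TK1 at 123.6 and MCM7 at 102.8. E2F2 was lowest at 3.34 CPM per kb, next to LIG1 at 3.74 and BRCA2 at 3.97. The same 3 genes led in LAPC4 Vec cells, with MCM7 first at 135.3 CPM per kb, PCNA at 109.7 and TK1 at 103.6. By the GENCODE 29 annotation of hg38, 21 of the 47 genes share exon bases with another gene, and 7 share at least 20% of them. TYMS (chr18:657604-673578, plus strand) is the extreme, with 46.6% of its exon bases shared with ENOSF1 and TYMSOS on the opposite strand. CCNE2 shares 37.1%, POLA2 35.1%, MCM2 and GINS4 23.6% each, PRIM1 21.6% and RRM2 20.2%. Whether counting used strand is not given in the sources used here, so reads of such pairs may be split or merged.

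The summed level of the 47 genes gives the outline of the series. It was 5147 and 5114 CPM in LNCaP OC2 OE, against 4662 and 4552 CPM in Control. It was 3008 and 3055 CPM in shOC2, against 4293 and 4633 CPM in shCon. In LAPC4 it was 5331, 5244 and 5223 CPM with OC2 OE, against 4922, 4982 and 5155 CPM in Vec. The groups did not overlap in any of the 3, and the gap was widest in the knockdown. In the drug experiment it was 1498, 1153 and 1533 CPM with the combination. Enzalutamide alone gave 937 CPM in the library without a number and 2060 and 1794 CPM in the others, and vehicle gave 3167, 3071 and 3172 CPM. Every treated library lay below every vehicle library, and the enzalutamide libraries spanned the whole range of the combination.

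**Figure D1:**
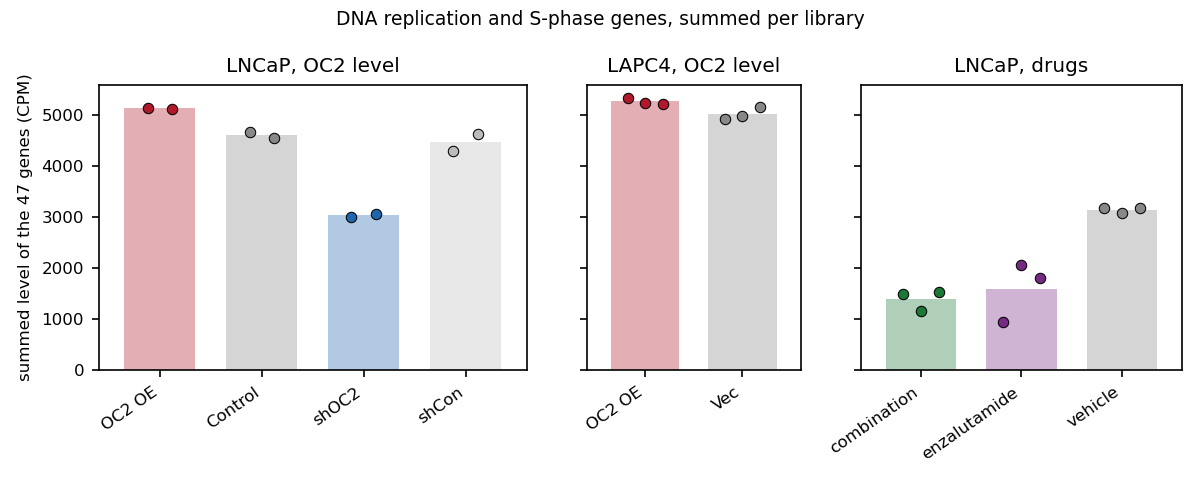
Summed level of the 47 DNA replication and S-phase genes (CPM, y axis) in each library (points) with the group mean (bars), in 3 panels for the LNCaP OC2 experiments, LAPC4 and the LNCaP drug experiment. The shOC2 libraries, at 3008 and 3055 CPM, sit below all other libraries of their panel, and vehicle sits above all treated libraries of its panel.

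The knockdown asked what less OC2 changes in LNCaP. The replication genes were lower almost as a block: 41 of the 47 were called lower and 1 higher (edgeR, adjusted p under 0.05), where 26.8% of all genes tested were called lower and 27.3% higher. Their median log2 fold change was -0.52, against 0.00 for all genes tested. The falls ran from 1.15-fold to 2.79-fold. In bulk RNA, a smaller share of cells in S phase and less transcript per cell cannot be told apart.

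All 11 licensing genes were lower with shOC2. MCM3, a subunit of the helicase, stood at 80.8 CPM in each shOC2 library, against 224 and 230.3 CPM in shCon. CDT1, which brings the helicase to the origin, stood at 45.9 and 43.8 CPM in shOC2, against 102 and 114 CPM in shCon. MCM2, another helicase subunit, stood at 132 and 129 CPM in shOC2, against 239 and 259 CPM in shCon. In all 3 genes the lowest shCon library was far above the highest shOC2 library. MCM3 was 2.79-fold lower (log2 fold change -1.48, SE 0.05, edgeR adjusted p = 2.31e-08), CDT1 2.38-fold lower (-1.25, SE 0.07, 4.22e-07) and MCM2 1.89-fold lower (-0.92, SE 0.05, 8.24e-07). The other subunits of the same helicase ring had smaller log2 fold changes, with MCM7 at -0.62, MCM4 at -0.52, MCM5 at -0.45 and MCM6 at -0.35. GMNN, the licensing inhibitor, was 1.48-fold lower (log2 fold change -0.57), and the loader CDC6 was also lower (-0.49).

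Of the 8 helicase activators 7 were lower, the exception being DBF4 (log2 fold change -0.13, edgeR adjusted p = 0.341). GINS2, a GINS subunit, stood at 27.3 and 26.6 CPM in shOC2, against 51.0 and 53.1 CPM in shCon, 1.92-fold lower (log2 fold change -0.94, SE 0.06, edgeR adjusted p = 1.69e-06). Of the 13 fork genes 12 were lower. RFC5, a clamp loader subunit, stood at 37.3 and 35.2 CPM in shOC2, against 69.98 and 76.5 CPM in shCon, 2.004-fold lower (SE 0.07 on the log2 scale, edgeR adjusted p = 1.64e-06). LIG1, which joins Okazaki fragments, stood at 19.7 and 19.8 CPM in shOC2, against 34.1 and 39.2 CPM in shCon (log2 fold change -0.88). PCNA, the sliding clamp, stood at 178 and 190.0 CPM in shOC2, against 248 and 257 CPM in shCon (log2 fold change -0.45). In none of these 4 genes did the groups overlap. RPA2, a subunit of the single-strand binding complex, was the fork gene that did not pass (log2 fold change -0.09).

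Nucleotide supply and the regulators were less uniform. TYMS, thymidylate synthase, stood at 103 and 104 CPM in shOC2, against 168 and 176 CPM in shCon (log2 fold change -0.72, edgeR adjusted p = 2.57e-06). RRM2, the S-phase subunit of ribonucleotide reductase, stood at 193 and 184 CPM in shOC2, against 181 and 230.4 CPM in shCon. Its groups overlapped, and the call was not made (log2 fold change -0.11, adjusted p = 0.314 in edgeR), although it was made without shCon replicate 1 (-0.28, 0.00387). E2F1, an activating E2F, was 1.63-fold lower (log2 fold change -0.71) and the repressor E2F7 1.56-fold lower (-0.64), while the repressor E2F8 did not pass (0.19). Of the cyclins E, which switch on the S-phase kinase CDK2, CCNE1 did not pass (0.13) and CCNE2 was lower (-0.27). CHAF1A, a histone loader at the fork, was 1.88-fold lower (log2 fold change -0.91).

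BRCA2, which acts in recombination repair of broken DNA, was the 1 gene called higher, at 20.9 and 19.98 CPM in shOC2, against 15.8 and 16.0 CPM in shCon (log2 fold change 0.37, SE 0.08, edgeR adjusted p = 0.00347). Its groups did not overlap, but the call ended without shOC2 replicate 1 (adjusted p = 0.0572). Leaving out a library also ended the call of CCNE2 (without shCon replicate 1, shCon replicate 2 or shOC2 replicate 1, adjusted p = 0.0619, 0.0823 and 0.227), of CDC6 (without shOC2 replicate 2, 0.0567), and of E2F7 and MCM5 without either shOC2 library (0.0591 and 0.0653 for E2F7, 0.0674 and 0.0663 for MCM5). The count of lower genes lay between 30 and 40 when 1 library was left out.

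The neighbouring parts of the cell cycle were counted in the same comparison. Of 40 other replication genes 27 were lower and 2 higher with shOC2 (median log2 fold change -0.27). PRIM2, the large primase subunit, and TIMELESS, a fork protection factor, had the largest falls (log2 fold change -1.31 and -0.93), and ORC5 and POLD4 were higher (0.55 and 0.48). Of 16 genes of G2 and mitosis 14 were lower (median -0.49), among them the mitotic regulator FOXM1 (-1.15) and the checkpoint kinase BUB1 (-1.01). Of 25 tested RB and E2F regulators 13 were lower and 4 higher. CDKN1A, the p21 inhibitor of cyclin kinases, was 2.57-fold higher (log2 fold change 1.36, edgeR adjusted p = 7.93e-08) and CDKN2B 1.66-fold higher (0.73). CDKN2C and CDKN2A, inhibitors of the cyclin D kinases, were lower (-1.29 and -1.13). Summed luminal markers stood at 8094 to 8168 CPM in shOC2, against 6426 to 6709 CPM in shCon, and 8 basal and neuroendocrine markers at 57.7 to 59.5 CPM, against 29.9 to 38.3 CPM. Summed stromal, endothelial and blood markers stood at 45.9 to 51.2 CPM in shOC2, against 43.2 to 46.9 CPM in shCon, with 2 of 5 tested higher and 3 lower. The part of these in the fall of the replication genes was not tested.

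Overexpression in LNCaP gave a mixed picture. Of the 47 genes 22 were higher and 11 lower (edgeR, adjusted p under 0.05), where 31.6% of all genes tested were called higher and 29.3% lower. The median log2 fold change was 0.14, against 0.02 for all genes tested. Higher genes were found in all 6 roles, and licensing was the role with no lower gene, with 5 of 11 higher. Without OC2 OE replicate 2 the counts were 12 higher and 7 lower.

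The steepest rises were in E2F2 and LIG1. E2F2, an activating E2F, stood at 63.8 and 67.3 CPM in OC2 OE, against 18.5 and 17.9 CPM in Control, which is 3.54 times as much (1.82 on the log2 scale, SE 0.08, adjusted p = 1.17e-07 in edgeR). LIG1 stood at 77.1 and 80.9 CPM in OC2 OE, against 24.9 and 24.2 CPM in Control, 3.17-fold higher (1.66, SE 0.08, 1.403e-07). The groups were far apart in both genes. POLD1 and POLE, the catalytic subunits of the lagging and leading strand polymerases, stood at 131 and 130.1 CPM and at 120.3 and 120.0 CPM in OC2 OE, against 74.9 and 68.2 CPM and 69.3 and 67.5 CPM in Control (log2 fold change 0.84 and 0.79). RPA2 stood at 102 and 101 CPM in OC2 OE, against 58.3 CPM in each Control library (0.77). GMNN (0.64), PCNA (0.52) and CDT1 (0.39) were also higher.

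The steepest falls were in BRCA2 and RFC3. BRCA2 stood at 14.3 and 19.6 CPM in OC2 OE, against 46.1 and 51.4 CPM in Control, 2.92-fold lower (log2 fold change -1.54, SE 0.13, edgeR adjusted p = 7.84e-06). RFC3, a clamp loader subunit, stood at 50.8 and 58.8 CPM in OC2 OE, against 123 CPM in each Control library, 2.27-fold lower (-1.19, SE 0.09, 2.12e-06). The kinase pair CDC7 and DBF4 was lower (-0.92 and -0.51), as was E2F7 (-0.63). The helicase subunits MCM2 (0.02), MCM3 (-0.03) and MCM5 (-0.07), the loader CDC6 (-0.17) and CCNE2 (-0.19) did not pass, nor did RRM1 (0.14), the large subunit of ribonucleotide reductase. MCM3, the gene with the deepest fall in the knockdown, stood at 182 and 174 CPM in OC2 OE, against 181 and 177 CPM in Control, so its groups overlapped. E2F8 (0.32), E2F1 (0.23), TYMS (0.22), RRM2 (-0.19) and CCNE1 (-0.26) passed with small changes, and each of these 5 calls ended when 1 library was left out: CCNE1 without any 1 of the 4 (adjusted p = 0.0627 to 0.204), E2F1 without Control replicate 2 or either OC2 OE library (0.0576 to 0.331), TYMS without the same 3 (0.0588 to 0.211), E2F8 without Control replicate 1 or OC2 OE replicate 2 (0.0622 and 0.112) and RRM2 without either OC2 OE library (0.181 and 0.295). CDC6 passed without Control replicate 1 (-0.20, 0.0464) and CCNE2 without OC2 OE replicate 2 (-0.37, 0.0376).

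The choice of control libraries mattered for these values. The shCon libraries differed from Control in 20 of the 47 genes that were higher and 16 that were lower (edgeR, against 28.3% and 28.1% of all genes tested), although their median log2 fold change was 0.01. BRCA2 (log2 fold change -1.62), RFC3 (-1.46), DBF4 (-1.29), MCM5 (-0.64) and RFC2 (-0.52) had the deepest falls in shCon, and FANCD2 (0.76), POLA2 (0.64), LIG1 (0.57), CCNE1 (0.51) and CDC25A (0.49) the steepest rises. Of the others followed throughout, PCNA (0.37), MCM3 (0.34), CDT1 (-0.27), E2F8 (-0.29), RRM2 (-0.32), CDC6 (-0.38), E2F7 (-0.41) and CCNE2 (-0.51) passed, and MCM2 (0.07), TYMS (0.11), GMNN (0.00) and E2F1 (-0.03) did not. With 1 library left out, the higher genes numbered 9 without Control replicate 1, 13 without Control replicate 2, 12 without shCon replicate 2 and 14 without shCon replicate 1. The lower genes numbered 9 without Control replicate 1 or shCon replicate 1, and at most 15 otherwise. The calls of CDC25A, CDC6, CDT1, E2F7, E2F8 and RRM2 each ended without Control replicate 1 (adjusted p = 0.0579, 0.0547, 0.291, 0.0748, 0.0711 and 0.205). All of these but CDT1 also ended without Control replicate 2, all but CDC25A without shCon replicate 1, and E2F8 without shCon replicate 2. Set against shCon in place of Control, OC2 OE had 24 of the 47 genes higher and 11 lower. The median log2 fold change was 0.16, against 0.01 for all genes tested. The shares of all genes called higher and lower are not given for this setting, so these 2 counts have no background. Of the 33 calls against Control, 18 kept their direction, 9 were lost and 6 turned round. The 6 were DBF4, GINS2, PRIM1, RFC3, RFC4 and FANCD2. E2F2 (1.55), LIG1 (1.09), POLE (0.79), CDT1 (0.66), GMNN (0.65) and POLD1 (0.60) were higher against either control, BRCA2 (0.08) was not called against shCon, and MCM3 (-0.36) was lower against shCon. ONECUT2 itself was 1.33-fold lower in shCon than in Control (log2 fold change -0.41, edgeR adjusted p = 0.0127), and it did not pass without Control replicate 2 (0.0773). The mitochondrially encoded genes made up 2.6% to 3.16% of the scaled counts in shCon and 8.74% to 9.34% in Control, with all 13 lower in shCon. The part of that difference in these results was not tested.

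**Figure D2:**
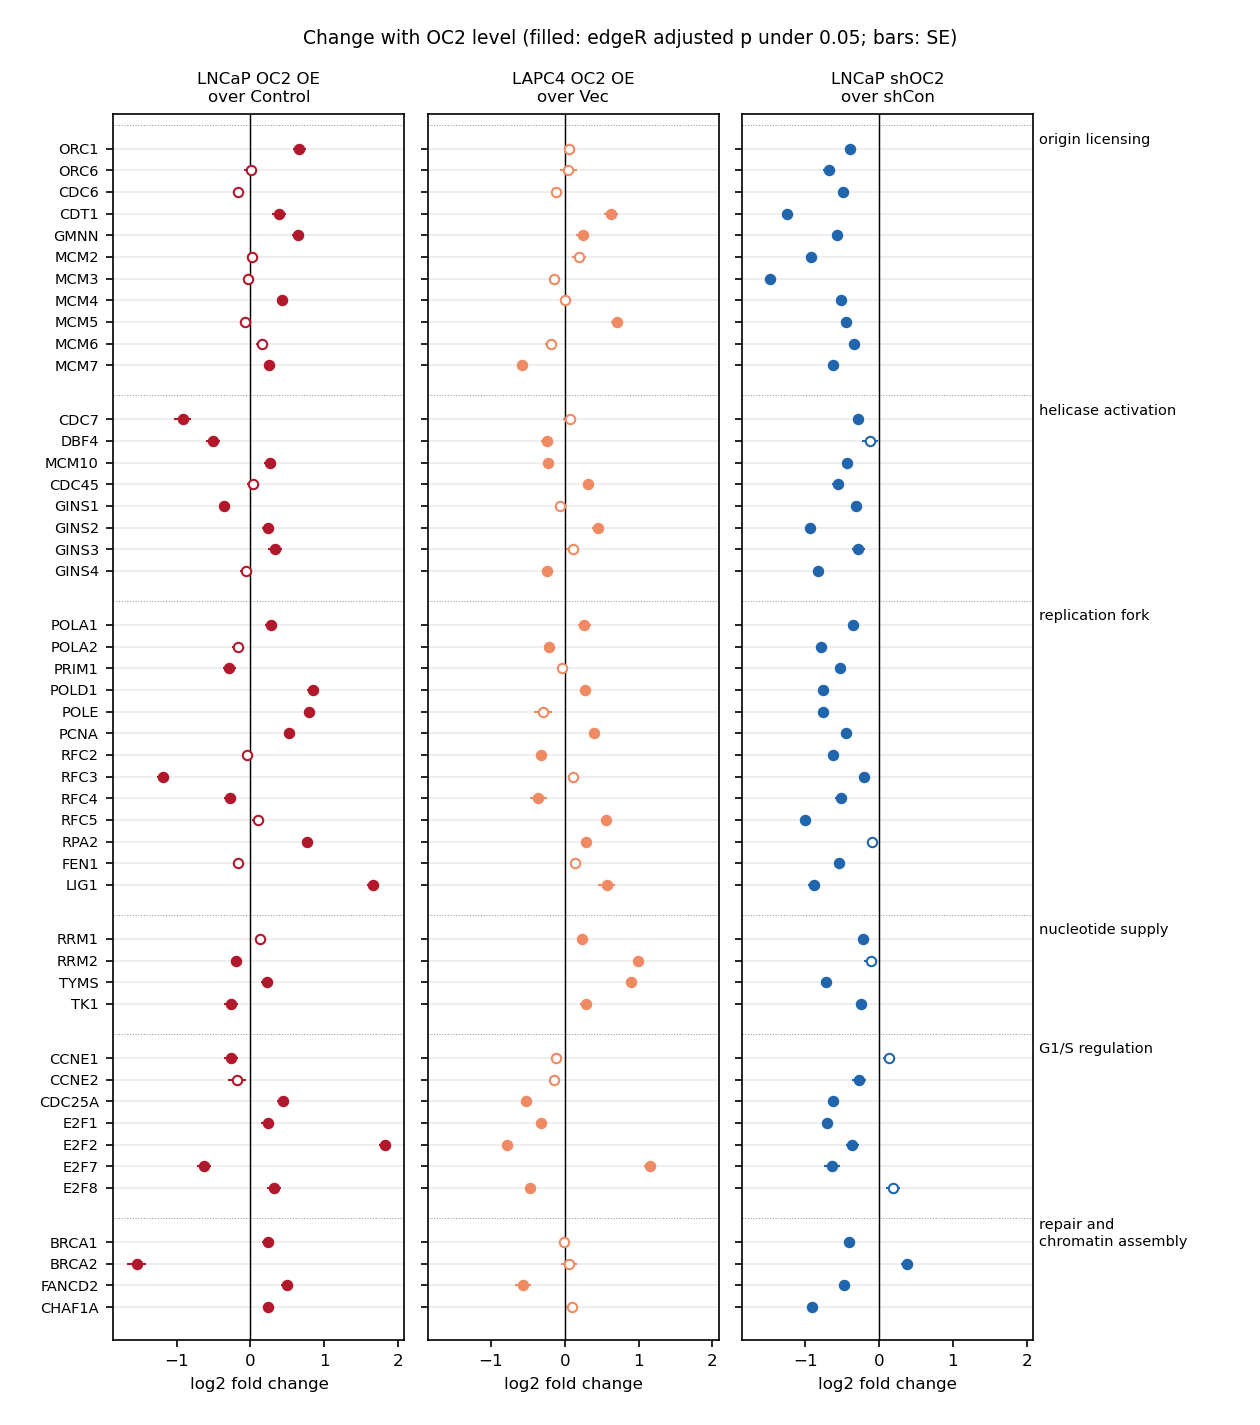
Log2 fold change (x axis) of each of the 47 genes, ordered by role (y axis), for LNCaP OC2 OE over Control, LAPC4 OC2 OE over Vec and LNCaP shOC2 over shCon; filled points passed edgeR's adjusted p of 0.05 and bars are standard errors. In the shOC2 panel 41 points are filled left of 0 and 1, BRCA2, right of it, while the overexpression panels have filled points on both sides.

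The overexpression and knockdown effects share no libraries, so they can be set against each other. In 1 fit of the 4 LNCaP groups, the overexpression effect exceeded the knockdown effect in 34 of the 47 genes and was below it in 4 (edgeR, against 29.4% and 26.3% of all genes tested), with a median difference of 0.68 on the log2 scale, against 0.04 for all genes tested. The steepest were LIG1 (difference 2.56), E2F2 (2.21), CDT1 (1.66), POLD1 (1.62) and POLE (1.58). Those below 0 were BRCA2 (-1.90), RFC3 (-0.96), CDC7 (-0.61) and CCNE1 (-0.37). All 11 licensing genes were above 0, among them MCM3 (1.48), GMNN (1.24), MCM2 (0.96), MCM5 (0.40) and CDC6 (0.34). PCNA (0.99), TYMS (0.96) and E2F1 (0.96) also passed, and E2F8 (0.16), CCNE2 (0.11), E2F7 (0.03), RRM2 (-0.06) and TK1 (0.01) did not. Neither MCM3 nor MCM2 passed in overexpression on its own. The calls of CDC6 and CCNE1 ended without shOC2 replicate 2 (adjusted p = 0.0672 and 0.0527) and without 1 other library (CDC6 without shCon replicate 2, 0.0978) or 2 others (CCNE1 without OC2 OE replicate 1 or shCon replicate 1, 0.0647 and 0.0555).

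Counted gene by gene, 20 of the 47 were higher with overexpression and lower with the hairpin, where 9.51% of all genes tested in both comparisons had this pattern. They are 20 of the 22 higher and of the 41 lower genes. Since 41 of the 47 were lower with the hairpin, a large overlap with any other set of these genes follows from the counts. The 20 include POLD1, POLE, LIG1, PCNA, CDT1, GMNN, E2F1, E2F2, GINS2 and CHAF1A. With OC2 OE set against shCon, GINS2 (-0.15) and FANCD2 (-0.26) were lower, and MCM4, MCM10, TYMS, CDC25A and CHAF1A were not called. Without OC2 OE replicate 2, the overexpression calls of MCM7, MCM10, GINS2, GINS3, POLA1, TYMS, E2F1, BRCA1 and CHAF1A ended. BRCA2 had the opposite pattern, lower with overexpression and higher with the hairpin (9.56% of all genes). It was not called with OC2 OE against shCon (0.08), and its hairpin call ended without shOC2 replicate 1. Another 7 genes, CDC7, GINS1, RFC3, RFC4, E2F7, TK1 and PRIM1, were lower in both (7.66% of all genes). Without shOC2 replicate 1, the hairpin calls of CDC7, GINS1, RFC3, E2F7 and TK1 ended. Without OC2 OE replicate 2, the overexpression calls of RFC4, TK1 and PRIM1 ended. Set against shCon, OC2 OE had RFC3 (0.28), RFC4 (0.23) and PRIM1 (0.19) higher and CDC7 (-0.86) and GINS1 (-0.27) lower, and E2F7 and TK1 were not called. Of the 20 promoters with an E2F word, 20 belonged to genes lower with the hairpin, and 13 to genes higher and 2 to genes lower with overexpression. Of the 21 promoters without one, 17 belonged to genes lower with the hairpin, and 6 to genes higher and 9 to genes lower with overexpression. The median log2 fold change with overexpression was 0.24 for genes with a word and -0.05 for genes without. The order was the reverse in LAPC4 overexpression, at -0.09 with a word and 0.06 without. Between the 2 LNCaP control sets, shCon against Control, it was 0.09 with a word and -0.03 without. A link between the word and the response was not tested.

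Other lists in LNCaP overexpression were mixed as well. Of the 40 other replication genes 17 were higher and 9 lower, with ORC3 (log2 fold change 1.35) and the helicase HELLS (1.18) the steepest rises and POLD4 (-0.99) and ORC5 (-0.75) the deepest falls. Of 16 genes of G2 and mitosis 4 were higher and 4 lower, with TOP2A at 0.58 and CCNB2 at -0.66. Each share was 25% and did not exceed the background, 31.6% higher and 29.3% lower of all genes tested. Of 25 tested RB and E2F regulators 13 were higher and 4 lower. CDK6, a cyclin D kinase, was 5.16-fold higher (log2 fold change 2.37, edgeR adjusted p = 1.76e-07) and CCND1, cyclin D1, 3.60-fold higher (1.85, 2.52e-08), while RBL2, an RB relative, was 1.64-fold lower (-0.71). The kinase inhibitors CDKN2B (1.76), CDKN2A (1.19), CDKN1B (0.69), CDKN1A (0.39) and CDKN2C (0.21) were higher too, and CDKN1C and CDKN2D did not pass. Summed luminal markers stood at 4548 to 4731 CPM in OC2 OE, against 7406 to 7609.8 CPM in Control, and basal and neuroendocrine markers at 121.1 to 127.7 CPM, against 6.6 to 8.0 CPM, and the part of these in the values above was not tested.

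In LAPC4, OC2 overexpression asked the same question in a second line. Of the 47 genes 16 were higher and 12 lower (edgeR, adjusted p under 0.05), where 32.1% of all genes tested were called higher and 29% lower, so both shares were near the background. The median log2 fold change was 0.06, against 0.00 for all genes tested, and it was 0.02 without Vec replicate 1, 0.03 without Vec replicate 3 and 0.03 without OC2 OE replicate 2. By role, higher and lower genes numbered 3 and 1 of 11 in licensing, 2 and 3 of 8 in helicase activation and 6 and 3 of 13 at the fork. All 4 nucleotide supply genes were higher, of the 7 regulators 1 was higher and 4 lower, and of the 4 repair genes 1 was lower.

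RRM2 stood at 406, 434 and 411 CPM in OC2 OE, against 202, 212 and 215 CPM in Vec, 1.98-fold higher (0.99 on the log2 scale, SE 0.06, adjusted p = 6.59e-07 in edgeR). TYMS stood at 227, 219 and 214 CPM in OC2 OE, against 125, 119 and 107 CPM in Vec, 1.87-fold higher (0.90, SE 0.08, 5.36e-06). The groups were far apart in both. TK1 (0.29) and RRM1 (0.23) were higher by less. E2F7 stood at 74.5, 78.5 and 80.6 CPM in OC2 OE, against 31.7, 33.4 and 39.3 CPM in Vec, 2.23-fold higher (1.16 on the log2 scale, SE 0.08, adjusted p = 1.73e-06 in edgeR). E2F2 stood at 65.1, 63.5 and 62.7 CPM in OC2 OE, against 108, 110.0 and 111 CPM in Vec, 1.73-fold lower (-0.79, SE 0.06, 1.71e-06). These 2 E2F genes thus moved apart, each with no overlap between groups. E2F1 (-0.32) and E2F8 (-0.47) were lower, and the cyclins CCNE1 (-0.12) and CCNE2 (-0.14) did not pass.

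Among licensing genes, MCM5 stood at 118, 98.7 and 113 CPM in OC2 OE, against 71.2, 67.3 and 62.1 CPM in Vec (log2 fold change 0.71, edgeR adjusted p = 7.49e-05). CDT1 stood at 48.8, 39.6 and 49.1 CPM in OC2 OE, against 30.5, 28.9 and 29.4 CPM in Vec (0.62, 0.000307). MCM7 stood at 414, 383 and 398 CPM in OC2 OE, against 574, 585 and 622 CPM in Vec (-0.58, 4.26e-05). MCM5 and MCM7, subunits of the same helicase, were thus changed in opposite directions, and MCM2 (0.19), MCM3 (-0.14), MCM4 (0.00) and MCM6 (-0.18) did not pass. GMNN (0.24) was higher, and CDC6 (-0.12) did not pass. At the fork, PCNA (0.40), LIG1 (0.57) and RFC5 (0.56) were higher and RFC4 (-0.36) and RFC2 (-0.32) lower, the RFC4 call ending without OC2 OE replicate 2 or 3. FANCD2, a repair gene of the Fanconi pathway (-0.57), and CDC25A, the phosphatase that activates CDK2 (-0.52), were also lower. The GMNN call ended without Vec replicate 2 (adjusted p = 0.136) or OC2 OE replicate 1 (0.109), MCM2 passed without Vec replicate 3 (0.000144), MCM3 without Vec replicate 1 (-0.21, 0.0311) and CCNE2 without OC2 OE replicate 2 (-0.20, 0.0451).

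Other lists were counted in LAPC4 too. Of the 40 other replication genes 13 were higher and 12 lower, with RPA3 (log2 fold change 0.78) and CLSPN (0.75) at the top and RECQL4 (-0.61) and CHAF1B (-0.42) at the bottom. These shares, 32.5% and 30%, were near the 32.1% and 29% of all genes tested. Of 16 genes of G2 and mitosis 11 were higher (median 0.39), among them BUB1 (0.80) and TPX2 (0.72). Of 25 tested RB and E2F regulators 13 were higher and 8 lower. The inhibitors CDKN1A and CDKN2A were 12.0-fold and 9.61-fold higher (log2 fold change 3.59 and 3.26, edgeR adjusted p = 8.53e-08 and 1.89e-07), while MYC (-0.48) and E2F5 (-0.47) were lower. The mitochondrially encoded genes made up 2.97% to 3.6% of the scaled counts in OC2 OE and 7.69% to 8.79% in Vec, and all 13 were lower. Summed luminal markers stood at 2701 to 2896 CPM in OC2 OE, against 3500.3 to 3837 CPM in Vec, and basal and neuroendocrine markers at 357.8 to 378.8 CPM, against 26.6 to 109.7 CPM. Summed stromal, endothelial and blood markers stood at 21.9 to 24.03 CPM in OC2 OE, against 7.48 to 11 CPM in Vec, with 3 of 6 tested higher. The part of these in the changes of the 47 genes was not tested.

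The effects in the 2 lines were compared by test. In a joint fit, the effect in LAPC4 exceeded that in LNCaP in 11 of the 47 genes and was below it in 16 (edgeR, against 25.4% and 24.1% of all genes tested). The share of genes with the larger effect in LAPC4 was near the background. The gaps were widest for E2F2 (LAPC4 minus LNCaP, -2.61 on the log2 scale), E2F7 (1.79), BRCA2 (1.60), RFC3 (1.29) and RRM2 (1.18), followed by LIG1 (-1.09), POLE (-1.08), FANCD2 (-1.06), CDC7 (0.98) and CDC25A (-0.96). MCM5 (0.78), TYMS (0.68), GMNN (-0.40), E2F1 (-0.55) and E2F8 (-0.79) differed too. The LNCaP side of these gaps used the Control libraries. With shCon in their place, OC2 OE in LNCaP gave 0.08 for BRCA2, 0.28 for RFC3 and 0.57 for MCM5. It gave -0.26 for FANCD2 and -0.045 for CDC25A, while E2F2 (1.55), LIG1 (1.09) and POLE (0.79) stayed higher. The differences from LAPC4 were not tested with shCon. MCM2 (0.17), MCM3 (-0.12), CDC6 (0.05), CDT1 (0.24), PCNA (-0.12), CCNE1 (0.14), CCNE2 (0.05) and RRM1 (0.09) did not pass. The GMNN difference lost its call without LNCaP Control replicate 1 (adjusted p = 0.0668) or OC2 OE replicate 1 (0.0799), and those of CDT1 (0.39, 0.0492, without LNCaP Control replicate 2) and MCM2 (0.30, 0.0109, without Vec replicate 3) gained one. Gene by gene, 9 of the 47 were higher in both lines (POLD1, POLA1, LIG1, GMNN, RPA2, GINS2, PCNA, CDT1 and TYMS), where 11.7% of all genes tested in both had this pattern, and DBF4 and RFC4 were lower in both (9.26% of all). In LAPC4 the DBF4 call ended without OC2 OE replicate 3, that of POLA1 without any 1 of Vec replicates 1 and 2 and OC2 OE replicates 2 and 3, that of GMNN without Vec replicate 2 or OC2 OE replicate 1, and that of MCM10 without Vec replicate 2 or OC2 OE replicate 1 or 3. Another 7 were higher in LNCaP and lower in LAPC4 (E2F2, MCM10, E2F1, E2F8, FANCD2, CDC25A and MCM7, against 9.27% of all), and E2F7, TK1 and RRM2 were lower in LNCaP and higher in LAPC4 (8.08% of all). Without OC2 OE replicate 2, the LNCaP calls of POLA1, GINS2, TYMS, RFC4, MCM10, E2F1, E2F8, MCM7, TK1 and RRM2 ended. Against shCon, LNCaP OC2 OE had DBF4 (0.78) and RFC4 (0.23) higher and GINS2 (-0.15) and FANCD2 (-0.26) lower. TYMS, MCM10, CDC25A, E2F7, TK1 and RRM2 were not called against shCon.

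**Figure D3:**
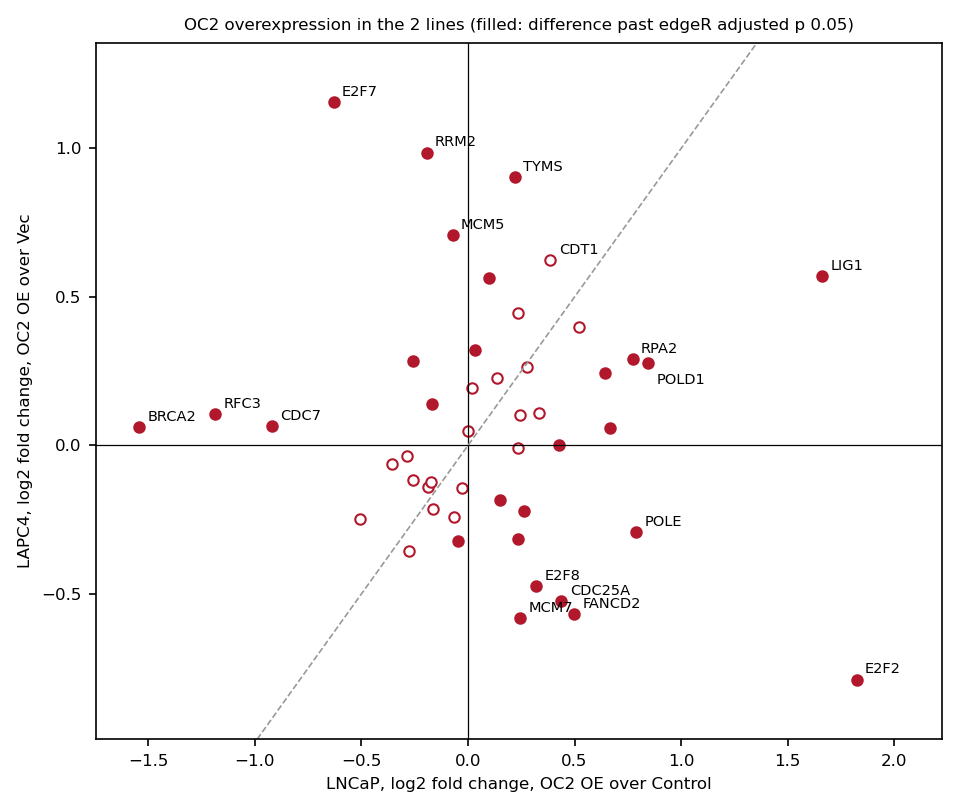
Log2 fold change with OC2 overexpression for the 47 genes, in LNCaP (OC2 OE over Control, x axis) and in LAPC4 (OC2 OE over Vec, y axis); filled points differ between the lines (edgeR adjusted p under 0.05) and the dashed line marks equal change. E2F2, at -0.79 in LAPC4 and 1.82 in LNCaP, and E2F7, at 1.16 in LAPC4 and -0.63 in LNCaP, lie in opposite corners.

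The drug experiment asked what enzalutamide, alone and with the OC2 inhibitor, changes in LNCaP within 7 days. With the combination all 47 genes were lower than in vehicle (edgeR, against 23.6% of all genes tested), with a median log2 fold change of -1.29, against 0.01 for all genes tested. Leaving out 1 library left 42 to 45 of these calls: those of BRCA2 and CCNE2 ended without any 1 of the 6 libraries, that of RFC2 without any but combination replicate 3, that of RRM1 without combination replicate 2 or vehicle replicate 1, and that of FANCD2 without combination replicate 2. Without combination replicate 2 and the unnumbered enzalutamide library together, all 47 passed. With enzalutamide alone 36 were lower (35.6% of all genes tested), with a median of -0.99. Without the unnumbered enzalutamide library, several values with enzalutamide were about 1.5 times smaller and still past the threshold, among them CDC6 (-0.59), MCM3 (-0.50), MCM2 (-0.63), MCM10 (-0.79), CDC45 (-0.75) and E2F8 (-0.79). Both comparisons use the same vehicle libraries, so their values are set side by side without a count of shared genes.

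Licensing genes were lower in all 11 cases in each comparison. CDT1 stood at 36.6, 31.7 and 36.3 CPM with the combination and at 17.9, 30.8 and 27.7 CPM with enzalutamide, against 82.2, 79.3 and 88.3 CPM in vehicle. GMNN stood at 14.7, 10.8 and 14.8 CPM with the combination and at 7.46, 11.9 and 11.5 CPM with enzalutamide, against 37.5, 41.3 and 36.0 CPM in vehicle. MCM3 stood at 62.0, 46.2 and 65.3 CPM with the combination and at 44.9, 97.7 and 82.8 CPM with enzalutamide, against 126, 126 and 127 CPM in vehicle. In all 3 genes every treated library was below every vehicle library. The log2 fold change against vehicle was -1.26 for CDT1, -1.51 for GMNN and -1.13 for MCM3 with the combination, and -1.72, -1.90 and -0.76 with enzalutamide (edgeR adjusted p = 0.000202, 0.000119 and 0.00300 with the combination, 6.74e-06, 6.29e-06 and 0.0134 with enzalutamide). MCM2 (-1.26 with the combination, -0.96 with enzalutamide), MCM5 (-1.40 and -1.55) and CDC6 (-1.71 and -0.94) were lower in both. The CDC6 call with enzalutamide ended without any 1 vehicle library (adjusted p = 0.0554 to 0.0586).

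Among helicase activators all 8 were lower with the combination and 5 with enzalutamide. MCM10 stood at 11.6, 8.45 and 10.6 CPM with the combination and at 6.12, 23.7 and 20.6 CPM with enzalutamide, against 38.3, 36.7 and 38.7 CPM in vehicle. DBF4 stood at 8.28, 5.19 and 8.88 CPM with the combination and at 10.1, 22.2 and 21.7 CPM with enzalutamide, against 27.9, 25.6 and 22.5 CPM in vehicle. CDC45, the helicase partner of GINS, stood at 11.3, 6.70 and 11.2 CPM with the combination and at 5.70, 21.3 and 17.5 CPM with enzalutamide, against 32.3, 32.2 and 32.5 CPM in vehicle. In each of them enzalutamide libraries 1 and 2 lay between the combination and vehicle, and the library without a number lay below or just above the combination range. MCM10 (log2 fold change -1.89), DBF4 (-1.76) and CDC45 (-1.73) were among the 5 deepest falls with the combination, and their values with enzalutamide were -1.18, -0.50 (not past the threshold) and -1.13.

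At the fork all 13 genes were lower with the combination and 8 with enzalutamide. PCNA stood at 82.7, 66.4 and 86.6 CPM with the combination and at 49.996, 105 and 91.3 CPM with enzalutamide, against 187, 180.2 and 183 CPM in vehicle (log2 fold change -1.22 and -1.17). POLE had the smallest fall of the 47 with the combination, at 47.8, 47.03 and 45.5 CPM with the combination and 50.9, 55.3 and 51.5 CPM with enzalutamide, against 58.3, 53.3 and 61.2 CPM in vehicle (log2 fold change -0.30 and -0.14, the second not past the threshold). RPA2 (-0.25) and RRM1 (-0.34) had the highest levels among genes that did not pass with enzalutamide. RPA2 (-0.33, edgeR adjusted p = 0.0285) and RRM1 (-0.53, 0.0350) passed without enzalutamide library 1.

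TYMS fell furthest with enzalutamide. It stood at 43.8, 30.2 and 50.9 CPM with the combination and at 4.82, 12.9 and 12.5 CPM with enzalutamide, against 115, 107 and 122 CPM in vehicle. The 3 groups did not overlap. The log2 fold change was -1.46 with the combination (2.75-fold lower, edgeR adjusted p = 0.00242) and -3.52 with enzalutamide (11.4-fold lower, 4.61e-06), the next deepest fall with enzalutamide being GMNN at -1.90. TYMS is also the gene that shares most exon bases with other genes, and the enzalutamide columns were counted in another step, so the drug and the counting cannot be told apart for this value. RRM2 stood at 67.3, 42.2 and 66.9 CPM with the combination and at 22.0, 70.7 and 61.1 CPM with enzalutamide, against 153, 159.7 and 164 CPM in vehicle (log2 fold change -1.43 and -1.64).

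The regulators were lower in 7 of 7 cases with the combination and in 6 with enzalutamide. E2F1 stood at 41.1, 35.4 and 44.7 CPM with the combination and at 14.6, 32.6 and 27.6 CPM with enzalutamide, against 92.1, 88.8 and 92.4 CPM in vehicle (log2 fold change -1.17 and -1.87). E2F2 had the deepest fall with the combination, at 5.25, 5.01 and 6.70 CPM with the combination and 3.82, 11.4 and 8.50 CPM with enzalutamide, against 19.7, 21.8 and 21.5 CPM in vehicle (-1.89 and -1.42). CDC25A stood at 12.3, 8.82 and 10.4 CPM with the combination and at 5.58, 14.3 and 13.01 CPM with enzalutamide, against 34.5, 33.9 and 34.1 CPM in vehicle (-1.70 and -1.65). All treated libraries lay below vehicle in these 3 genes. E2F8 (-1.61 with the combination, -1.18 with enzalutamide), CCNE1 (-1.01 and -0.81) and CCNE2 (-0.52 and -1.23) were lower in both, and E2F7 was lower with the combination (-1.76) and did not pass with enzalutamide (-0.43). The CCNE2 call with the combination had an adjusted p of 0.0489 and ended without any 1 of the 6 libraries compared (0.0818 to 0.128). BRCA2 was the 1 gene of the 47 with a positive value in either comparison, 0.67 with enzalutamide (adjusted p = 0.133 in edgeR) and -1.23 with the combination.

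**Figure D4:**
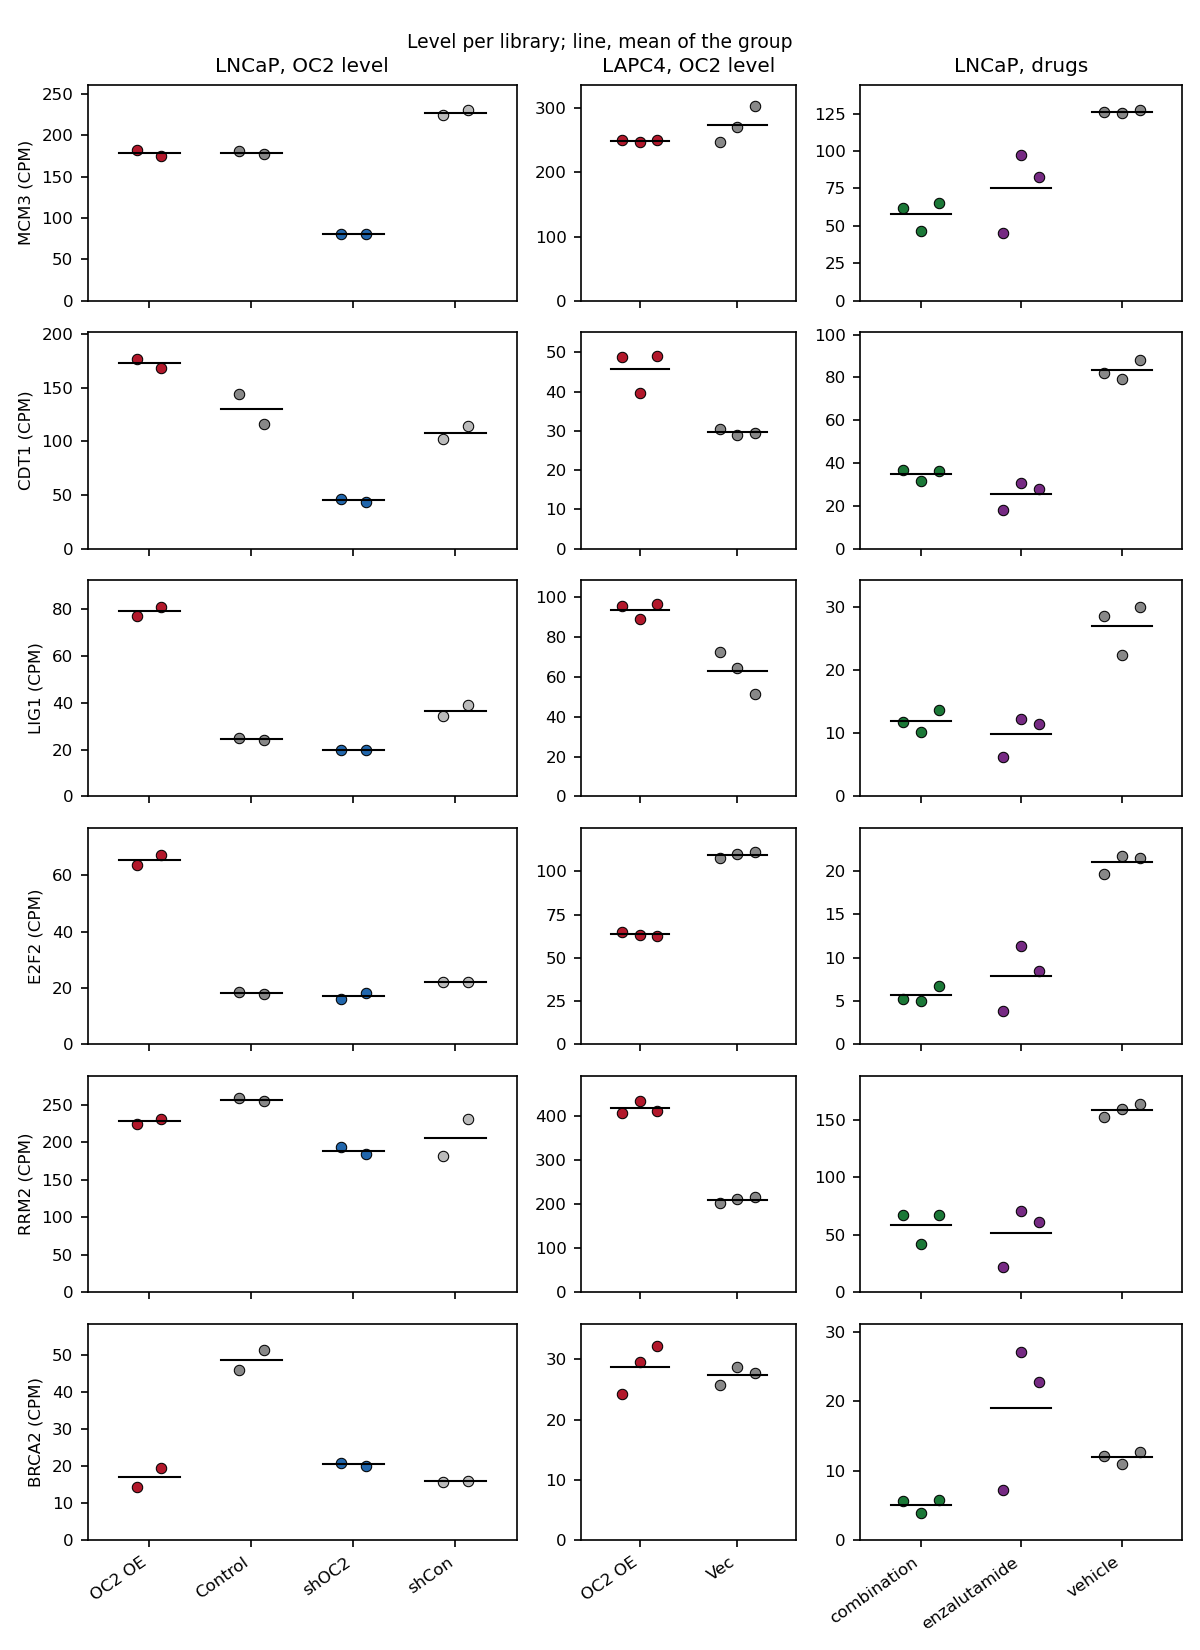
Level (CPM, y axis) of MCM3, CDT1, LIG1, E2F2, RRM2 and BRCA2 in each library (points), with group means (lines), in the LNCaP OC2, LAPC4 and LNCaP drug tables, which were scaled separately. MCM3 drops in shOC2 (80.8 CPM in each library), E2F2 is high in LNCaP OC2 OE (63.8 and 67.3 CPM) and low in LAPC4 OC2 OE (62.7 to 65.1 CPM, against 108 to 111 CPM in Vec), and BRCA2 is high in Control and in 2 enzalutamide libraries.

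Against enzalutamide alone, the combination had 4 of the 47 genes higher and 7 lower (edgeR, against 31.4% and 30.4% of all genes tested), with a median log2 fold change of -0.20, against -0.02 for all genes tested. This count rested on the enzalutamide library without a number. Without it, 31 genes were lower and the median was -0.45, against 0.00 for all genes tested. The calls over all genes, in either direction, also rose without it, from 10790 to 12260. Without that library and combination replicate 2 as well, 30 were lower and the median was -0.34, against 0.00 for all genes tested. Without enzalutamide library 1 the median was -0.04, near that of all genes tested (-0.02). Leaving out enzalutamide library 1, enzalutamide library 2, combination replicate 1 or combination replicate 2 gave 4 lower genes each, and leaving out combination replicate 3 gave 2 higher genes. TYMS (log2 fold change 2.05, SE 0.31, edgeR adjusted p = 0.000231), CCNE2 (0.70), E2F1 (0.70) and CDT1 (0.46) were higher with the combination. TYMS and CCNE2 share the most exon bases with other genes (46.6% and 37.1%), and the counting step differed between these groups. BRCA2 (-1.90), E2F7 (-1.33), RFC3 (-1.32), DBF4 (-1.26), GINS1 (-0.80), RFC4 (-0.64) and RPA2 (-0.33) were lower.

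BRCA2 stood at 5.61, 3.86 and 5.71 CPM with the combination, against 7.25, 27.1 and 22.7 CPM with enzalutamide. RFC3 stood at 16.9, 11.5 and 14.7 CPM with the combination, against 16.9, 46.4 and 45.2 CPM with enzalutamide. E2F7 stood at 3.71, 2.99 and 4.35 CPM with the combination, against 4.12, 12.2 and 11.5 CPM with enzalutamide. In all 3 the library without a number was within or next to the combination range, and the other enzalutamide libraries were well above it. MCM7 (-0.54) and RRM1 (-0.37) had the highest levels among genes that did not pass. MCM2 (-0.30), MCM3 (-0.37), MCM5 (0.15), CDC6 (-0.76), GMNN (0.39), PCNA (-0.06), RRM2 (0.20), CCNE1 (-0.20) and E2F8 (-0.43) did not pass either. Without the library without a number, MCM2 (-0.63), MCM3 (-0.63), CDC6 (-1.12), MCM7 (-0.82), PCNA (-0.31), RRM1 (-0.60), E2F8 (-0.82) and CCNE1 (-0.23) passed as lower. GMNN passed as higher without combination replicate 2 (0.54, adjusted p = 0.0296 in edgeR). The call of CDT1 ended without combination replicate 1 (0.0760) or 3 (0.0753), that of E2F1 without combination replicate 3 (0.0621), and that of GINS1 without any 1 of the 5 libraries other than the one without a number (0.0569 to 0.129). Against vehicle, leaving out the library without a number moved the median with enzalutamide to -0.78 and gave 2 higher genes, BRCA2 (1.05) and RFC3 (0.29). ONECUT2 stood at 13.7, 16.0 and 13.3 CPM with the combination and at 20.8, 30.6 and 27.1 CPM with enzalutamide, against 16.9, 16.7 and 14.0 CPM in vehicle. It was 1.64-fold higher with enzalutamide than in vehicle (log2 fold change 0.71, edgeR adjusted p = 0.00139), lower with the combination than with enzalutamide (-0.86, 0.000527), and not called with the combination against vehicle (-0.15, 0.440).

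**Figure D5:**
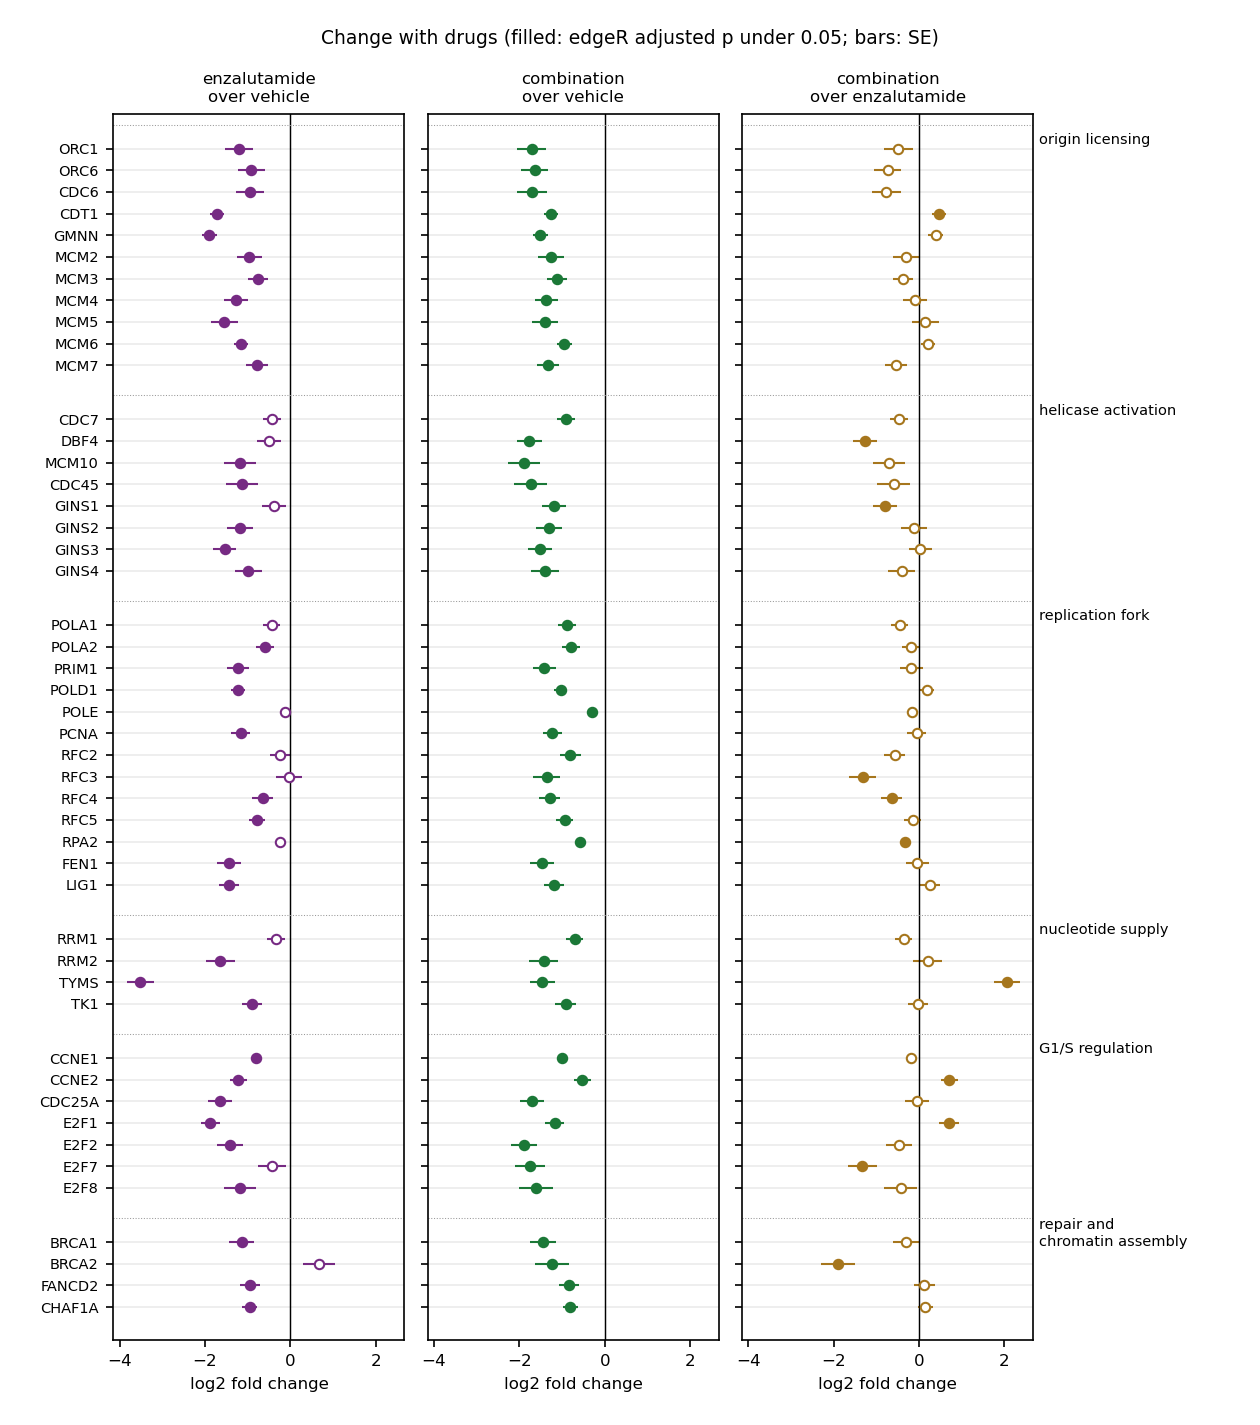
Log2 fold change (x axis) of each of the 47 genes, ordered by role (y axis), for enzalutamide over vehicle, combination over vehicle and combination over enzalutamide; filled points passed edgeR's adjusted p of 0.05 and bars are standard errors. All 47 points of the combination over vehicle are filled and left of 0, and TYMS stands out at -3.52 in enzalutamide over vehicle and at 2.05 in combination over enzalutamide.

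The other lists were counted in the drug experiment as well. Of the 40 other replication genes 35 were lower and 2 higher with the combination and 25 lower and 1 higher with enzalutamide, each against vehicle. EXO1 (-1.75) and CLSPN (-1.70) had the deepest falls with the combination, and CLSPN (-2.23) had the deepest with enzalutamide. The higher genes were POLD4 (0.42) and ORC4 (0.38) with the combination and MCM9 (0.33) with enzalutamide. Of 16 genes of G2 and mitosis 16 were lower with the combination and 12 with enzalutamide, led by AURKB (-1.69) and UBE2C (-1.57) with the combination and by PLK1 (-2.22) and FOXM1 (-1.60) with enzalutamide. Of 26 RB and E2F regulators 13 were lower and 4 higher with the combination and 10 lower and 8 higher with enzalutamide, where 23.6% of all genes tested were lower and 23.2% higher with the combination and 35.6% lower and 34.7% higher with enzalutamide. The enzalutamide shares of this list were near that background. CDK6 (-2.57) and CCNA2 (-1.57) were lower and RBL2 (0.60) and RB1 (0.39) higher with the combination, and CCNA2 (-1.43) and CDK2 (-1.29) were lower and CCND2 (2.22) and RBL2 (0.91) higher with enzalutamide. Against enzalutamide alone, the combination had 9 higher and 11 lower of the other replication genes (POLD4 2.21, BRIP1 -1.05 and POLE2 -0.92), 4 lower of the G2 and mitosis genes (CDK1 -1.01 and TOP2A -0.87), and 5 higher and 10 lower of the regulators (CDK4 0.70 and CDKN2A 0.36, CCND2 -3.96 and CDK6 -1.88). Of all genes tested, 31.4% were higher and 30.4% lower in this comparison. The shares of the other replication genes and of the G2 and mitosis genes did not exceed that background. The mitochondrially encoded genes made up 7.67% to 7.98% of the scaled counts with the combination and 1.3% to 2.87% with enzalutamide, against 8.72% to 9.24% in vehicle. Summed luminal markers stood at 4960.4 to 5045 CPM with the combination and 3719 to 4003 CPM with enzalutamide, against 6247 to 6852 CPM in vehicle, and basal and neuroendocrine markers at 62.0 to 66.2 CPM and 44.6 to 124.2 CPM, against 17.0 to 19.0 CPM. The part of these in the values above was not tested.

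The knockdown and the combination share no libraries. All 41 genes that were lower with shOC2 were among the 47 lower with the combination, where 10.1% of all genes tested in both comparisons were lower in both. Since all 47 were lower with the combination, that overlap follows from the counts. The order within the list differed: MCM3, the deepest fall with shOC2 at -1.48, had -1.13 with the combination, while E2F2, the deepest with the combination at -1.89, had -0.37 with shOC2. The 20 genes with an E2F word in the promoter had a median of -1.24 with the combination and -0.62 with shOC2, and the 21 without one had -1.41 and -0.52.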

How the data were processed

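RNA was sequenced from 23 libraries. FastQC 0.9.0, Bowtie2 and the hg38 build are named in the submitters' processing notes. The counter, its annotation and whether it used strand were not given in the labels or the file headers. The authors deposited 3 tables: whole read counts for LAPC4 and for the enzalutamide columns, and estimated counts, not always whole and rounded here, for the other LNCaP columns. The shOC2 and shCon columns were matched by hairpin name, and the enzalutamide columns to their group only. Library totals were 20964025 to 23272088 in the LNCaP table, 28586064 to 30465978 in LAPC4 and 22615580 to 28241076 in the drug table.

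Genes passing filterByExpr (minimum count 10) were tested with edgeR 4.0.16 (R 4.3.3, TMM scaling, quasi-likelihood F-test, Benjamini-Hochberg adjustment over all genes tested, threshold 0.05), after checks on simulated data. Levels are CPM with TMM factors over a table. Alternatives were DESeq2 1.42.0, RLE factors, no filter, each library left out, a replicate block, other control sets and other samples in the fit. Libraries that stand apart were left out as an alternative chosen after seeing the data. The members and lists (other replication genes, RB and E2F regulators, G2 and mitosis genes, luminal, basal and neuroendocrine, stromal, and mitochondrial genes) were chosen with earlier results of these data known. Values are given in each comparison for 14 marker members, the 5 steepest called members in each direction, the 2 highest members that did not pass, and the 2 steepest called genes of the replication, regulator and mitotic lists, except in shCon against Control and the 2 differences of effects, and except 1 gene that is not reported here. Marker and mitochondrial lists were to be named too and are given as sums and counts only. Same-numbered libraries did not deviate together, so the main fits have no block. Gene coordinates and exon overlaps come from GENCODE 29 on hg38.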

Additional observations from a re-analysis of the deposited data

Results flagged for a closer look

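The overexpression effect differed between the lines, by the test of LAPC4 minus LNCaP in 1 joint edgeR fit, for 15 of the named members and for ONECUT2 itself. On the log2 scale the difference was positive for E2F7 (1.79), BRCA2 (1.60), RFC3 (1.29), RRM2 (1.18), CDC7 (0.98), MCM5 (0.78) and TYMS (0.68). It was negative for E2F2 (-2.61), LIG1 (-1.09), POLE (-1.08), FANCD2 (-1.06), CDC25A (-0.96), E2F8 (-0.79), E2F1 (-0.55) and GMNN (-0.40). For ONECUT2 it was 2.34. The LAPC4 cells also grew with R1881 and in another medium, so line, culture and OC2 level cannot be told apart in these differences. The differences also rest on the LNCaP Control libraries. With shCon in their place, OC2 OE in LNCaP gave 0.08 for BRCA2 and 0.28 for RFC3, and 1.55 for E2F2 and 1.09 for LIG1.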

How the results depend on the processing

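Across all alternatives the counts of called members stayed within 1.5 times of those reported, with these exceptions. For LNCaP OC2 OE against Control, 7 members were lower without the filter on low counts, and leaving out 1 library gave 12 to 17 higher and 7 to 10 lower. For shOC2 against shCon, leaving out 1 library gave 0 to 1 higher members and 5076 to 7863 genes called of all. For enzalutamide against vehicle it gave 0 to 2 higher, and for the combination against enzalutamide 2 to 5 higher and 4 to 31 lower. For shCon against Control it gave 9 to 14 higher and 9 to 15 lower. Without the unnumbered enzalutamide library and combination replicate 2, an alternative chosen after seeing the data, 2 members were higher with enzalutamide against vehicle and 30 lower with the combination against enzalutamide. With shCon in place of Control, the sign with OC2 OE turned for BRCA2 (0.0812), RRM2 (0.13), CDC6 (0.22), RFC3 (0.28), CCNE2 (0.33), MCM5 (0.57), DBF4 (0.78), PRIM1 (0.19), RFC4 (0.23), TK1 (0.12), RFC2 (0.48), GINS2 (-0.15), FANCD2 (-0.26), MCM10 (-0.03), CDC25A (-0.04), ORC6 (-0.41), RFC5 (-0.25), MCM2 (-0.05), MCM6 (-0.07) and RRM1 (-0.10). The cause of these changes was not tested, beyond the smaller number of libraries where some were left out. The correlation of deviations between same-numbered libraries lay between -0.104 and 0.115, so the numbers do not pair them. With a replicate block, 24 members were higher and 15 lower in LNCaP OC2 OE, 16 higher and 12 lower in LAPC4 OC2 OE, 1 higher and 41 lower in shOC2, and 47 lower with the combination against vehicle in a fit without the enzalutamide columns. DESeq2 called 20 higher and 10 lower in LNCaP OC2 OE, 38 lower in shOC2, and 4 higher and 10 lower with the combination against enzalutamide. With 2 or 3 libraries a group, changes near the threshold depend on single libraries.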

Other observations

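BRCA2 and RFC3, which had the deepest falls in LNCaP OC2 OE and in shCon against Control, lie 1418 kb apart on chromosome 13. Of the 8 protein-coding genes from BRCA2 to RFC3, all 6 tested, BRCA2 and RFC3 included, were lower in OC2 OE against Control (median log2 fold change -1.09), 6 of 7 tested were lower in shCon against Control (-0.89), and 5 of 6 were lower with the combination against enzalutamide (-1.12). Of all genes tested, 29.3%, 28.1% and 30.4% were lower in these 3 comparisons. With shOC2 against shCon 2 of 6 were lower and 2 higher (-0.04), and with the combination against vehicle 2 of 6 were lower and 1 higher (0.00). BRCA2 stood at 46.1 and 51.4 CPM in the Control libraries of the first LNCaP experiment and at 27.1 and 22.7 CPM in enzalutamide libraries 1 and 2, while all other LNCaP libraries held 3.86 to 20.9 CPM. These genes were looked at after their values were seen.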
